A study of Mus musculus with 2 samples.

Results

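Integrins, laminins and the proteins of the basement membrane were examined in brain neural stem cells, as 39 protein-coding genes of the 19595 genes in the deposited count table. They were chosen by name: the Itga and Itgb subunits, the Lama, Lamb and Lamc chains, Nid1, Nid2, Hspg2, Agrn, Dag1, Fn1 and Sparc, without the integrin-binding proteins such as Itgb1bp1. The study compared 1 control library (labelled psicor, genotype WT) with 1 library in which Ccdc25 was knocked down (labelled sh1, genotype KO). Both came from ICR mice at embryonic day 13, and the series is about the part of Ccdc25 in making neurons. The design text speaks of triplicates, but the table has 1 count column a group. Whether a column is 1 culture or a pool, what psicor is and when cells were collected after the knockdown is not given in the labels. So the differences below have no replicate check and were not tested. The 95% interval after each ratio (in brackets) is exact and conditional on the summed count, and it reflects the counting of reads alone. In each pair of values the control comes first and the knockdown second.

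Integrins are receptors built from an alpha and a beta subunit that bind the extracellular matrix outside the cell and couple it to the actin skeleton inside. Laminins are trimers of an alpha, a beta and a gamma chain and form the sheet on which a basement membrane is assembled, with nidogens, collagen IV and the heparan sulphate proteoglycans perlecan and agrin joined to it. In the embryonic brain, the end feet of radial glia, the stem cells of the cortex, rest on the basement membrane below the meninges and hold on to it through integrins and dystroglycan.

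The total was 16549682 counts for the control and 16058407 for the knockdown, of which the 39 genes took 0.259% and 0.320%. Levels are given in CPM (counts per 1000000), with each library's size scaled by edgeR's trimmed-mean (TMM) factors. Ccdc25 itself had 553 and 411 counts, a ratio of 0.794 (0.697 to 0.904). Its level was thus only 20.6% lower in the knockdown library, so the counts bear out that label weakly. Of 14 neural stem cell markers, 14 were past a mean of 1 CPM, and their levels summed to 7433 and 9894 CPM. The 8 astrocyte markers summed to 614 and 5197 CPM, the 10 of the oligodendrocyte lineage to 3011 and 5275 CPM, and the 12 of neurons to 2860 and 1210 CPM. In bulk RNA, fewer cells of a type and less RNA per cell cannot be told apart.

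The knockdown library held far more Itga7 and Itgb4 and far less Lama1, Itga3 and Fn1 than the control, while the leading beta and alpha subunits of the control, Itgb1 and Itga6, had ratios of 0.820 and 0.954. Of the 39 genes, 31 averaged 1 CPM or more over the 2 libraries. Of these 31, the knockdown library held 5 at 2-fold or more above the control (Itga7, Itgb4, Itga2, Agrn and Itga2b), a share of 16.1% beside 7.64% of all 14158 genes past the same minimum. Another 7 were at least 2-fold lower (Lama1, Itga3, Itga9, Fn1, Lama2, Itga4 and Lamb1), 22.6% beside 7.76% of all genes. The other 19 lay within 2-fold. The median log2 fold of the 31 was -0.29, and that of all genes past the minimum was -0.004. Both directions were thus more frequent among these genes than in the table as a whole. Among the 20 genes averaging 10 CPM or more, 3 were higher and 4 lower by 2-fold, beside 4.91% and 4.87% of all genes at that level. Among the 11 below it, 2 were higher and 3 lower, beside 14.7% and 15.2%. At 1.5-fold, 9 were higher and 13 lower, beside 16% and 15.7% of all genes.

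**Figure D1:**
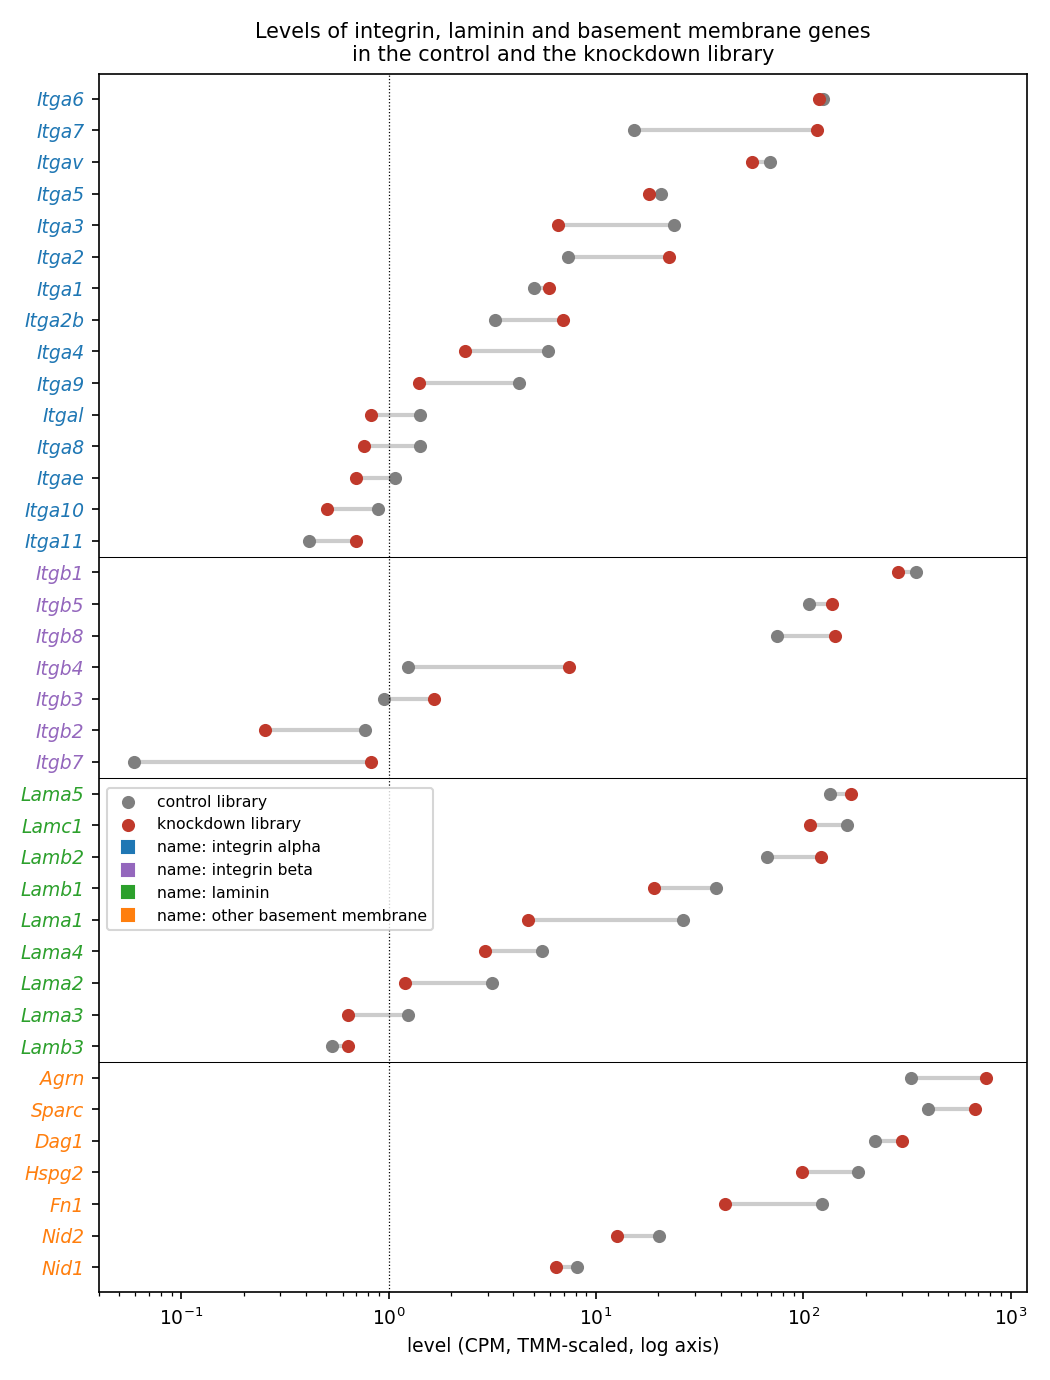
Level of the integrin, laminin and basement membrane genes in the control library (grey) and the knockdown library (red), in CPM on a log axis, with names coloured by class and a dotted line at 1 CPM. Itga7 stands at 15.3 and 117 CPM, beside Itga6 at 124 and 119 CPM, and Lama1 at 26.3 and 4.69 CPM.

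**Figure D2:**
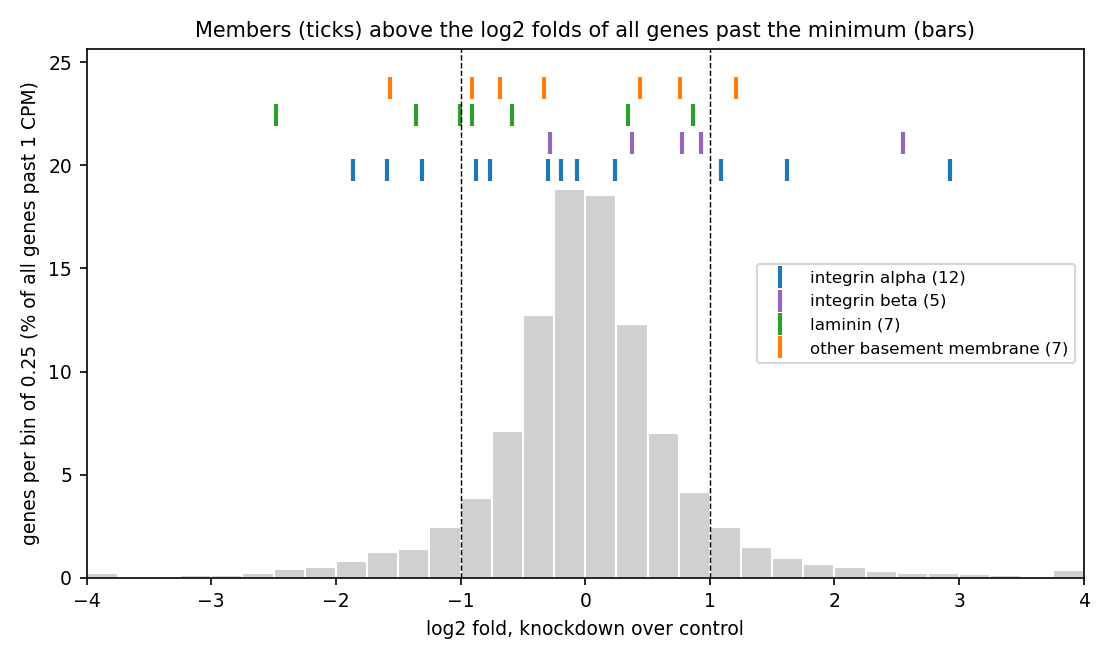
Log2 folds of the 31 genes past the minimum (ticks, 1 row a class) above those of all 14158 genes past it (bars, percent of genes per bin of 0.25, with folds beyond 4 in the end bins). Dashed lines mark 2-fold. Of the laminin ticks, 5 of 7 lie below 0, and of the integrin beta ticks 4 of 5 lie above it. Of all 14158 genes, 7125 lie below 0 and 7033 above it.

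Among the laminin receptors, the alpha subunits differed in direction. Itga6, which pairs with Itgb1 or Itgb4, had 2093 and 1869 counts. This is 124 and 119 CPM, and its ratio was 0.954 with an interval that includes 1 (0.896 to 1.02). Itga7, a laminin receptor subunit best known from skeletal muscle, had 258 and 1839 counts (ENSMUSG00000025348, chromosome 10, 128933818 to 128958282, plus strand). It stood at 15.3 and 117 CPM, and its ratio was 7.62 (6.68 to 8.71) and the 120th highest log2 fold of the 14158 genes past the minimum. Itga3, the third laminin-binding subunit, was lower, with 401 and 103 counts (ENSMUSG00000001507, chromosome 11, 95044474 to 95076801, minus strand). It stood at 23.8 and 6.53 CPM, and its ratio was 0.274 (0.219 to 0.342). Itga7 was thus low and Itga3 higher in the control, and the order of the pair was the opposite in the knockdown library.

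Levels of different genes were compared per kilobase of annotated exon. In the control, Itga6 led the alpha subunits with 13.8 CPM per kb, followed by Itgav at 6.47, Itga5 at 4.19, Itga3 at 4.17 and Itga7 at 1.89 CPM per kb. Itga5 and Itga3 cannot be ranked, since with the length of the longest coding transcript they stood at 4.71 and 4.90 CPM per kb. In the knockdown library Itga7 at 14.4 and Itga6 at 13.1 CPM per kb stood side by side at the top, above Itgav at 5.26 and Itga5 at 3.66 CPM per kb. Of the summed alpha level, Itga7 made up 5.53% and 33.3%, and Itga3 12.2% and 2.64%. The quotient of Itga7 to Itga6 within a library, which no scaling factor enters, was 7.98 times as high in the knockdown library (6.90 to 9.26). That of Itga3 to Itga6 was 0.288 times its control value (0.227 to 0.362). The 15 pairs whose quotients were computed were picked with their values known.

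**Figure D3:**
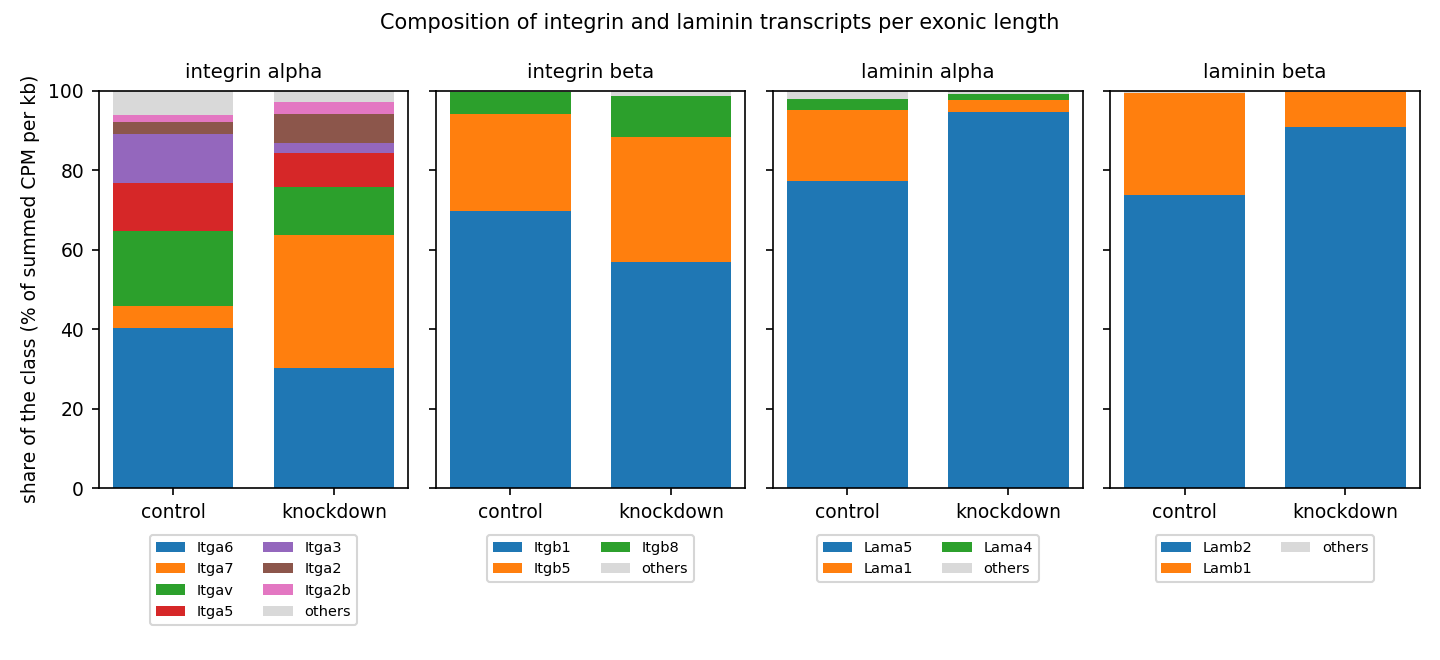
Share of each subunit or chain in the summed level of its class (percent of CPM per kb of exon) in the control and knockdown libraries. Genes under 2% of their class in both libraries are pooled as others. Itga7 widens from 5.53% to 33.3% of the alpha subunits, Lama5 from 77.2% to 94.6% of the laminin alpha chains and Lamb2 from 73.7% to 90.9% of the beta chains.

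The collagen receptors Itga1 and Itga2 lie next to each other on chromosome 13, with 20995 bases between them, and only Itga2 passed 2-fold. Itga2 had 123 and 355 counts (ENSMUSG00000015533, chromosome 13, 114833081 to 114932100, minus strand). It stood at 7.30 and 22.5 CPM, and its ratio was 3.08 (2.51 to 3.82). Itga1 had 85 and 94 counts, a ratio of 1.18 whose interval includes 1 (0.872 to 1.604). The quotient of Itga2 to Itga1 differed between the libraries by a factor of 2.61 (1.79 to 3.79). Itga1 shares 685 exonic bases with a gene on its own strand, so part of its reads may not have been assigned. The other collagen-binding subunits, Itga10 with 15 and 8 counts and Itga11 with 7 and 11, were below the minimum.

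The upstream sequences of this neighbouring pair are shown here because the 2 genes share a locus and a strand but not a fold. Sequences are from RefSeq on GRCm38.p6, whose promoter table holds 25 of the 39 genes. They run from 250 to 51 bases before the annotated start, at chr13:115102015-115102214 for Itga1 and chr13:114932151-114932350 for Itga2, both on the minus strand, and contain no annotated exon. Capitals mark matches on either strand, overlaps allowed, to 4 motifs: the GC box GGGCGG, the CCAAT box CCAAT, the E-box CANNTG and the AP-1 site TGANTCA.
Itga1: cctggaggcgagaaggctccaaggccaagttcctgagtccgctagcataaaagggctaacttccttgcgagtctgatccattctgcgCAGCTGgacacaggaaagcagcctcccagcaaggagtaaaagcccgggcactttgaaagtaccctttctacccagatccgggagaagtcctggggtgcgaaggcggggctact
Itga2: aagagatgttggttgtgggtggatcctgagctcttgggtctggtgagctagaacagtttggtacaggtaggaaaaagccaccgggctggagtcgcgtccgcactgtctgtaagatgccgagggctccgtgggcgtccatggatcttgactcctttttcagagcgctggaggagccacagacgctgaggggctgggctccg
Itga1 held 1 E-box and Itga2 no match. Of all 32851 promoter windows of that length, 24.6% hold a GC box, 28.4% a CCAAT box, 59% an E-box and 5.57% an AP-1 site.

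Among subunits that bind the RGD motif of fibronectin and related ligands, the abundant ones lay near the control level. Itgav, the partner of several beta subunits, had 1171 and 891 counts, which is 69.5 and 56.5 CPM and a ratio of 0.813 (0.744 to 0.888). Itgav shares 634 exonic bases with a gene on the other strand. Itga5, the classical fibronectin receptor subunit, had 348 and 285 counts, a ratio of 0.875 with an interval that includes 1 (0.746 to 1.03). Itga8 had 24 and 12 counts, too few to tell from an equal level (0.243 to 1.11), and shares 372 exonic bases with a gene on the other strand. Only Itga2b, the platelet fibrinogen receptor subunit, passed 2-fold. It had 55 and 110 counts (ENSMUSG00000034664, chromosome 11, 102453297 to 102470122, minus strand), a ratio of 2.14 (1.53 to 3.01). Its log2 fold of 1.09 became 0.995, just under 2-fold, once the trend with exonic length and GC content was removed.

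Itga4 and Itga9, related subunits that bind VCAM1, fibronectin and other ligands, were both lower. Itga4 had 99 and 37 counts (ENSMUSG00000027009, chromosome 2, 79255426 to 79333123, plus strand), or 5.87 and 2.35 CPM, and its ratio was 0.399 (0.266 to 0.588). Itga9 had 72 and 22 counts (ENSMUSG00000039115, chromosome 9, 118606690 to 118901003, plus strand), or 4.27 and 1.40 CPM, and its ratio was 0.327 (0.193 to 0.533). Both were rare in either library. Itga4 shares 1124 exonic bases with Cerkl on the other strand, and whether strand was used in counting is not stated. Of the subunits of leukocytes, Itgal had 24 and 13 counts, a ratio of 0.579 whose interval includes 1 (0.271 to 1.18). Itgae with 18 and 11 and Itgb2 with 13 and 4 counts were below the minimum. Of 13 microglia and macrophage markers, 7 stood at 0 in the knockdown library (among them Csf1r, Cx3cr1 and Ptprc), while the number at 0 in the control was 0. Those 7 were rare in the control too, with at most 21 counts, the value of Csf1r. The 3 markers past the minimum were still counted in the knockdown library: Cd68 had 215 and 151 counts, Aif1 34 and 17, and Lyz2 309 and 16. The summed level of all 13 was 39.9 and 12.3 CPM, of which Lyz2 alone made up 18.3 and 1.01 CPM. The part of such cells in the values of Itga4, Itgal and Itgb2 was not tested.

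Among the beta subunits, Itgb4 and Itgb8 stood out from Itgb1. Itgb1, the partner of most alpha subunits, had 5900 and 4530 counts, or 350 and 287 CPM, and its ratio was 0.820 (0.789 to 0.853). It was the most abundant subunit of all in both libraries, at 85.8 and 70.4 CPM per kb. Itgb5, a partner of Itgav, followed with 29.9 and 38.9 CPM per kb, and its 1791 and 2177 counts gave a ratio of 1.30 (1.22 to 1.38). Itgb8, which with Itgav activates latent TGF-beta, had 1254 and 2233 counts (ENSMUSG00000025321, chromosome 12, 119158022 to 119238802, minus strand). It stood at 74.4 and 142 CPM, and its ratio was 1.90 (1.78 to 2.04), and its log2 fold of 0.93 became 1.11 with the length and GC trend removed. Its quotient to Itgb1 was 2.32 times as high in the knockdown library (2.14 to 2.51).

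Itgb4, the long-tailed subunit of hemidesmosomes, had 21 and 117 counts (ENSMUSG00000020758, chromosome 11, 115974709 to 116008412, plus strand). It stood at 1.25 and 7.42 CPM, and its ratio was 5.95 (3.72 to 9.98). Even in the knockdown library it remained rare, at 1.058 CPM per kb beside 70.4 for Itgb1. It shares 537 exonic bases with a gene on the other strand. Itgb3, the partner of Itga2b, had 16 and 26 counts, a ratio of 1.74 with an interval that includes 1 (0.897 to 3.46). Itgb7, a lymphocyte subunit below the minimum, had 1 and 13 counts, a ratio of 13.9 with an interval from 2.09 to 590.

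**Figure D4:**
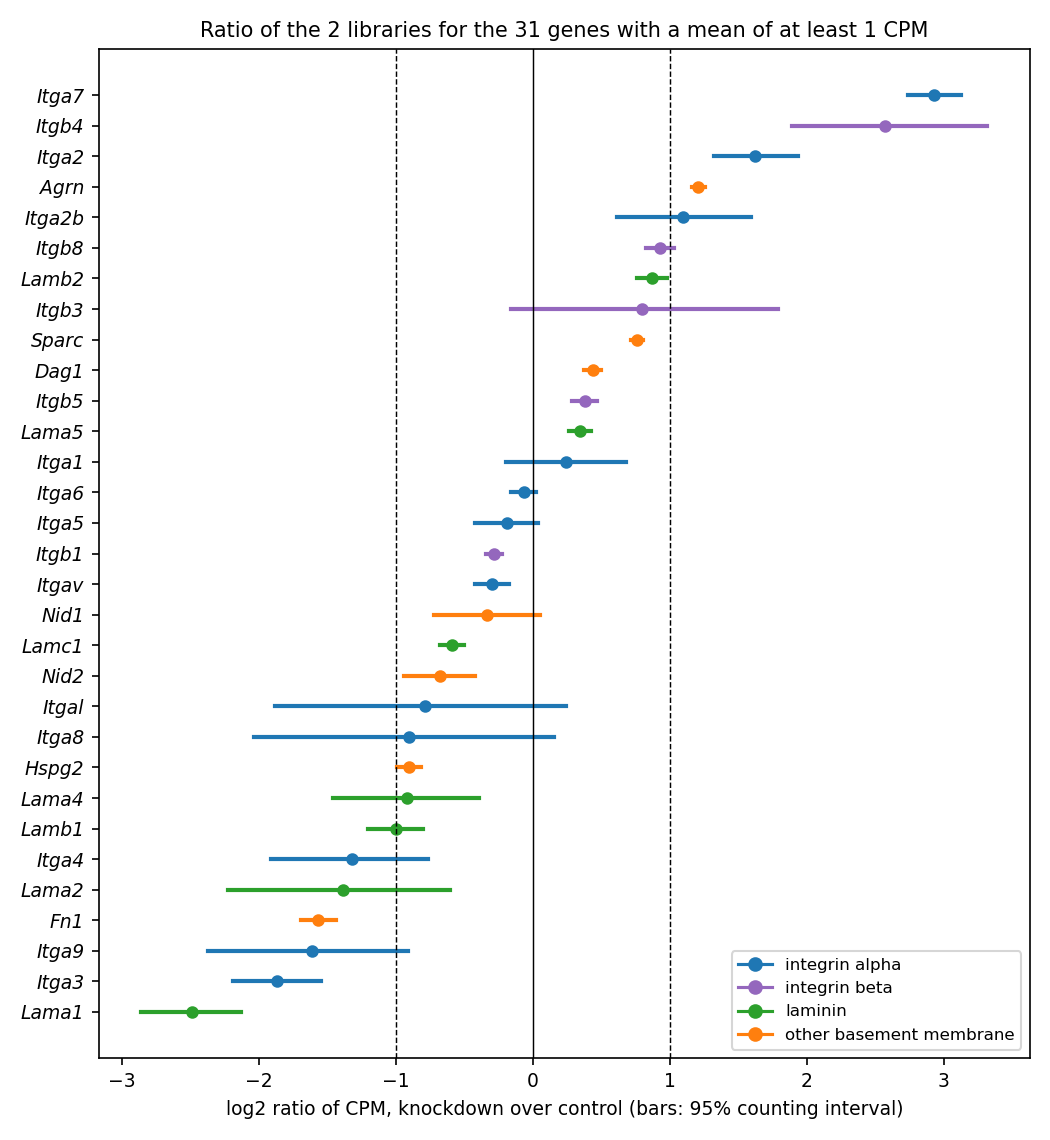
Ratio of the knockdown to the control library on a log2 axis for the 31 genes averaging 1 CPM or more, sorted by ratio and coloured by class. Bars are 95% counting intervals and dashed lines mark 2-fold. Intervals lie above a ratio of 1 for 11 of the 31 genes and below it for 13, and they are widest for Itga8, Itgal and Itgb3. Of all 14158 genes past the same minimum, the intervals of 4702 lie above 1 and those of 4759 below it.

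Laminin chains were mostly lower, but Lama5 and Lamb2, the leading alpha and beta chains of the control, were higher. Of the 7 chains past the minimum, 5 lay below the control, 3 of these by at least 2-fold, and 2 (Lama5 and Lamb2) lay above it. The 3 are 42.9% of the 7, beside 7.76% of all genes past the minimum. Of those 14158 genes, 7125 lay below the control. Lama1, the alpha chain of early embryonic basement membranes, had 443 and 74 counts (ENSMUSG00000032796, chromosome 17, 67697265 to 67822645, plus strand). It stood at 26.3 and 4.69 CPM, and its ratio was 0.178 (0.138 to 0.229), the 128th lowest log2 fold of the 14158 genes past the minimum. Lama5, the alpha chain of many mature basement membranes, had 2266 and 2686 counts, or 134 and 170 CPM, and its ratio was 1.27 (1.20 to 1.34). The quotient of Lama5 to Lama1 per kb was 4.35 and 30.9, a 7.10-fold difference (5.50 to 9.26). Lama5 was therefore the leading alpha chain in both, with 77.2% and 94.6% of the summed alpha level.

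The minor alpha chains were lower too. Lama2, the chain of muscle and peripheral nerve, had 53 and 19 counts (ENSMUSG00000019899, chromosome 10, 26980036 to 27619758, minus strand), a ratio of 0.383 (0.214 to 0.658). Lama4, a chain of vessel walls, had 93 and 46 counts, a ratio of 0.529 (0.363 to 0.760). Lama3, below the minimum, had 21 and 10 counts. Lama2 shares 631 exonic bases with a gene on the other strand.

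The beta chains differed in direction. Lamb1 had 642 and 300 counts (ENSMUSG00000002900, chromosome 12, 31265234 to 31329644, plus strand), or 38.1 and 19.0 CPM. Its ratio of 0.499 (0.434 to 0.574) lies at the 2-fold line, and its log2 fold became -0.99 with the length and GC trend removed. Lamb2, the beta chain of neuromuscular and kidney basement membranes, had 1127 and 1926 counts (ENSMUSG00000052911, chromosome 9, 108479736 to 108490530, plus strand). It stood at 66.9 and 122 CPM, and its ratio was 1.83 (1.70 to 1.97). Per kb, Lamb2 was 2.86 times as abundant as Lamb1 in the control and 10.5 times in the knockdown library, a 3.66-fold difference (3.12 to 4.29). With the longest coding transcript as length these quotients were 1.80 and 6.60. Lamc1, the gamma chain shared by most laminins, had 2745 and 1708 counts, or 163 and 108 CPM, and its ratio was 0.665 (0.626 to 0.707). In the control it stood at 19.7 CPM per kb, above every alpha and beta chain, and in the knockdown library at 13.1, below Lamb2 at 20.1 and Lama5 at 15.0 CPM per kb. Lamb3 had 9 and 10 counts. The epithelial chains Lama3 and Lamb3 thus stood at 1.25 CPM or less in both libraries.

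The proteoglycans of the basement membrane differed in direction. Agrn encodes agrin, which clusters receptors at the nerve-muscle synapse and binds laminin and dystroglycan. It had 5550 and 11995 counts (ENSMUSG00000041936, chromosome 4, 156165290 to 156197488, minus strand). It stood at 329 and 761 CPM, and its ratio was 2.31 (2.24 to 2.39). Hspg2, which encodes perlecan, had 3101 and 1548 counts (ENSMUSG00000028763, chromosome 4, 137468769 to 137570630, plus strand), or 184 and 98.2 CPM, and its ratio was 0.533 (0.502 to 0.567). Both genes were abundant, so their intervals are narrow and far apart. Agrn was 2.76 times as abundant per kb as Hspg2 in the control and 11.9 times in the knockdown library, a 4.33-fold difference (4.04 to 4.64).

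Their upstream sequences are shown because these relatives lie on the same chromosome and differed in opposite directions. The windows are placed as above, at chr4:156197539-156197738 on the minus strand for the most upstream of the 2 starts of Agrn and at chr4:137468553-137468752 on the plus strand for Hspg2. Capitals mark matches to the same 4 motifs.
Agrn: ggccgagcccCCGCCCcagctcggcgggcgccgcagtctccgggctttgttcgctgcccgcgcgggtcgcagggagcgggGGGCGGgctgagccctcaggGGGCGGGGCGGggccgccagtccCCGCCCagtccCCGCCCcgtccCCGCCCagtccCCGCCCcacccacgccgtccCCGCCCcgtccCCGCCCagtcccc
Hspg2: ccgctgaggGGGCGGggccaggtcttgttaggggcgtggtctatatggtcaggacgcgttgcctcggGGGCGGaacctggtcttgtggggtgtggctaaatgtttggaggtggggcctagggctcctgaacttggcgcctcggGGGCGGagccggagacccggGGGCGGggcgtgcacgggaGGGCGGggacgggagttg
All matches were GC boxes, 10 in Agrn and 5 in Hspg2, and 24.6% of all windows of that length hold at least 1. GC content was 84.0% and 70.0%. Whether these boxes bear on the level of either gene was not tested.

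Of the remaining proteins, Fn1 was lower and Sparc and Dag1 were higher. Fn1 encodes fibronectin, the matrix ligand of Itga5 and Itgav. It had 2087 and 659 counts (ENSMUSG00000026193, chromosome 1, 71585520 to 71653200, minus strand), or 124 and 41.8 CPM, and its ratio was 0.337 (0.309 to 0.368). It shares 292 exonic bases with Apol7d, which had 3 and 9 counts, on the other strand. Of the subunits that bind it, Itga5 and Itgav had ratios of 0.875 and 0.813, closer to 1, and Itga4 and Itga9 had ratios of 0.399 and 0.327. Sparc, a secreted collagen-binding protein, had 6736 and 10674 counts, or 400 and 677 CPM, and its ratio was 1.69 (1.64 to 1.75). It had the highest level per kb of the 39 genes, 106 and 179 CPM per kb. Dag1 encodes both subunits of dystroglycan, the laminin and agrin receptor. It had 3729 and 4723 counts, or 221 and 299 CPM, and its ratio was 1.35 (1.30 to 1.41). Of the nidogens, which tie laminin to collagen IV, Nid2 had 341 and 199 counts, a ratio of 0.624 (0.521 to 0.745). Nid1 had 136 and 101 counts, a ratio of 0.794 with an interval that includes 1 (0.607 to 1.03). Nid2 shares 437 exonic bases with Rtraf on the other strand, which had 1805 and 1937 counts, so its value is uncertain if strand was not used.

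Most markers of cells that make matrix around the brain were lower in the same library as Lama1, Lama2, Lama4, Lamb1, Hspg2 and Fn1. Of 12 markers of mesenchyme and meninges, 8 were past the minimum, 6 of them at least 2-fold lower and 1 (Pdgfrb) higher, with a median log2 fold of -2.14. These are 75% and 12.5%, beside 7.76% and 7.64% of all genes past the minimum. All 12 together reached 337 and 47.4 CPM, of which Acta2 alone made up 261 and 22.8 CPM. Lum and Tbx18 stood at 0 in the knockdown library. The 7 endothelial markers summed to 9.79 and 3.55 CPM. Of these, 2 were past the minimum, both at least 2-fold lower, beside the same 7.76% of all genes. Below the minimum, Pecam1 had 8 and 9 counts, a ratio of 1.20 (0.412 to 3.58), and Esam 19 and 12 (0.299 to 1.46). Both of these intervals include 1. Cdh5 had 7 counts in the control and stood at 0 in the knockdown library. A count of 0 allows up to 0.19 CPM there, at 3 counts. The part of these matrix-making cells in the lower laminin and fibronectin levels was not tested. Nor was that of astrocytes and the oligodendrocyte lineage, whose markers were mostly higher, in the levels of Itga7, Itgb4, Itgb8 and Agrn.

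The other components of the basement membrane did not share a direction. In the list of collagen IV and other basement membrane components, 22 of 27 genes were past the minimum. Of these, 1 was 2-fold or more above the control, 5 were below it and 16 were within 2-fold. The share higher was 4.55% and the share lower 22.7%, beside 7.64% and 7.76% of all genes past the minimum. The median log2 fold was -0.10. The abundant collagen IV chains Col4a1 and Col4a2 were near their control level: Col4a1 had 821 and 756 counts, a log2 fold of -0.02, and Col4a2 had 690 and 545, a log2 fold of -0.24. The furthest were the collagen cross-linking enzymes Loxl2, with a log2 fold of -2.43, and Lox, with -2.26, and the matrix protein Papln, with -2.11. Not all cross-linking enzymes were low, since Pxdn, the peroxidase that cross-links collagen IV, had 965 and 1538 counts, a ratio of 1.70 (1.57 to 1.85). The rarer chains Col4a5 and Col4a6 were at log2 folds of 0.35 and 0.58.

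Ligands of integrins other than laminins were more often lower. Of 24 matricellular and soluble ligands, 21 were past the minimum, 4 of them 2-fold or more above and 9 below the control. These are 19.0% and 42.9%, beside 7.64% and 7.76% of all genes past the minimum. The median log2 fold was -0.91. The summed level of all 24 was nevertheless higher, at 2085 and 2840 CPM, with Mfge8 alone at 289 and 1532 CPM. Reln, the guidance protein that also binds integrins, was furthest at -3.96, followed by Postn, a ligand made by fibroblasts, at -3.60. Vwf, which had only 5 and 31 counts, was at 2.61. For TGF-beta activation, the process in which Itgb8 takes part, 9 of 12 genes were past the minimum, with a median of 0.14. By 2-fold, 1 was higher and 2 were lower, 11.1% and 22.2% beside 7.64% and 7.76% of all genes. Ltbp3, which holds latent TGF-beta in the matrix, stood at 35.6 and 134 CPM, and its ratio was 3.76 (3.43 to 4.12). It shares 182 exonic bases with a gene on the other strand. The ligands Tgfb1 and Tgfb3 were at log2 folds of -1.51 and -1.18, with 62 and 20 and with 90 and 37 counts.

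Inside the cell, adaptors of integrins passed 2-fold about as often as all genes did. Of 37 integrin adaptors and activators, 35 were past the minimum, 4 of them 2-fold or more above the control, 2 below it and 29 within 2-fold. These are 11.4% and 5.71%, beside 7.64% and 7.76% of all genes past the minimum. The median log2 fold was -0.11. Of the talin and kindlin genes, which activate integrins, Tln1 and Fermt2 were near their control level, with log2 folds of 0.15 and 0.14. The other talin gene, Tln2, had 1099 and 641 counts, a log2 fold of -0.68. The kindlin gene Fermt3 was at -0.63, with 55 and 33 counts and a ratio whose interval includes 1 (0.403 to 1.005). The exceptions included Lims2, Parvb and the endocytic adaptor Dab2, with log2 folds of 5.45, 2.81 and 1.78. Lims2 and Parvb encode partners of the integrin-linked kinase, and Lims2 shares 188 exonic bases with Gpr17 on the other strand, which had 45 and 3693 counts.

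The genes that process and anchor dystroglycan mostly lay near their control level. Of the 17 glycosylation genes past the minimum (of 18), which build the sugar chain that binds laminin and agrin, all lay within 2-fold and had a median log2 fold of -0.006. Dpm1, which supplies activated mannose and shares 895 exonic bases with a gene on its own strand, was furthest at 0.996, and Ispd was at 0.60. Of 13 genes of the dystrophin complex, which anchors dystroglycan inside the cell, 10 were past the minimum, with a median of 0.03. By 2-fold, 2 were higher and 0 lower, 20% and 0% beside 7.64% and 7.76% of all genes. One of the higher ones was Sspn, with 75 and 156 counts. Sntb2 was at a log2 fold of -0.68, and Dmd and Utrn, the long scaffold proteins of the complex, were at -0.14 and -0.12.

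**Figure D5:**
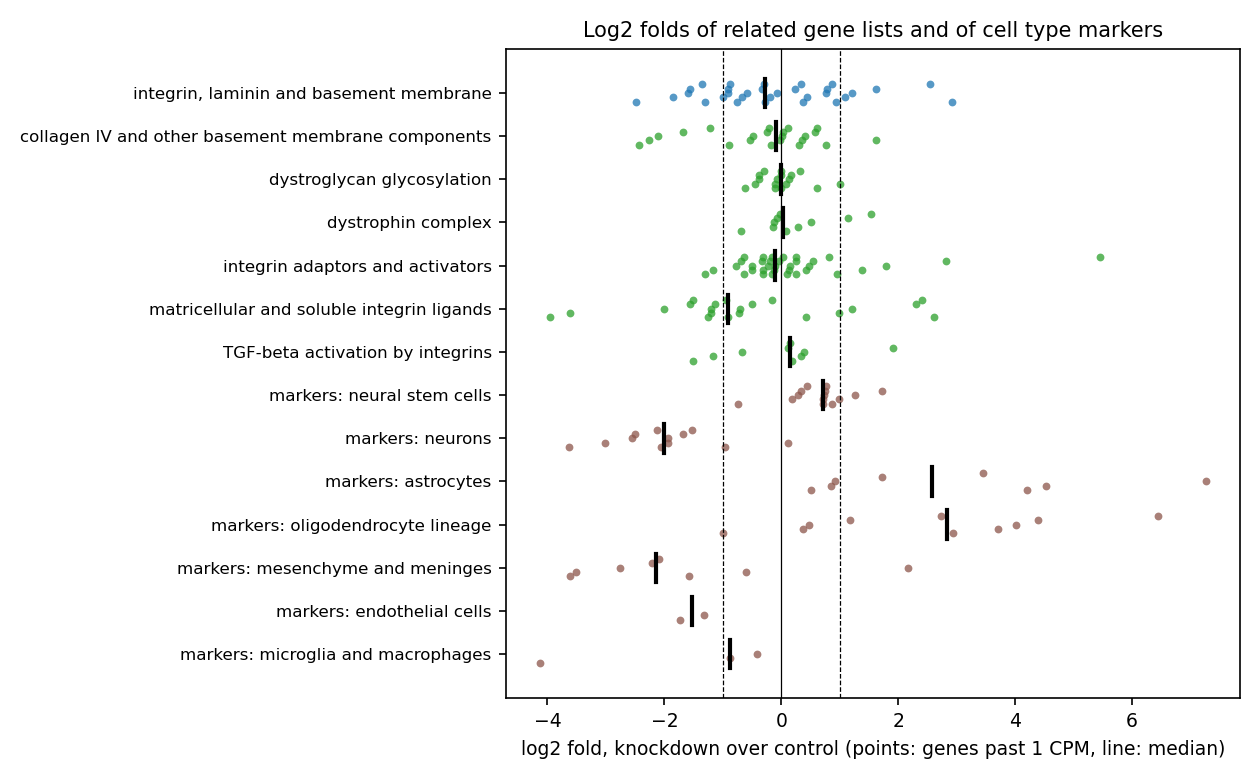
Log2 folds, knockdown over control, of the genes past 1 CPM in each list (points), with the median as a black line, for the 31 integrin, laminin and basement membrane genes (blue), related lists (green) and cell type markers (brown). Dashed lines mark 2-fold. The median is -0.29 for the 31 genes and -0.006 for dystroglycan glycosylation, and the marker medians run from -2.14 (mesenchyme and meninges) to 2.84 (oligodendrocyte lineage).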

How the data were processed

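RNA-seq of 1 control and 1 knockdown library was used. Tools listed in the submitters' processing notes, with no order or settings, are HTSeq 0.6.0, TopHat2 2.0.12 and Bowtie2 2.2.3, with mm9 as build. The authors deposited raw counts per gene, CPM made with 1 factor per library, their ratio (fold change), its log2, and p-values from a test the file header does not name, which were not used here. Gene positions in the deposited table are those of GRCm38: all 39 overlapped the gene's span in GENCODE M21, and 36 had the same start and end.

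From the deposited counts, edgeR 4.0.16 gave TMM factors of 1.018 (control) and 0.982 (knockdown). For log2 folds (knockdown over control), 0.5 was added to each count before division by the scaled library. CPM and ratios carry no added count, and ratios have Clopper-Pearson 95% intervals (scipy 1.17.1). Reads that are PCR copies are not separate molecules. The expression minimum, a mean of 1 CPM, left 14158 genes. Lengths are merged exons in GENCODE M21. The calculation was tested on simulated data. All members past the minimum are named with values, and up to 3 of each related list by absolute log2 fold. Further list genes, such as Col4a1, Pxdn, Tln1 and Dmd, are named outside this rule. The values of 1 member and of some list genes are not reported here. Members and lists were chosen with earlier results of these data known. Some chosen genes were not among the protein-coding genes of the deposited table and so were not counted. Among them were Itgam and Itgax of the integrins and the endothelial markers Tek, Tie1 and Cldn5. Alternatives were DESeq2 1.42.0 size factors, total counts, the authors' CPM, no minimum or one of 10 CPM, a prior count of 5, a 1.5-fold threshold and, added after the data were seen, removal of the trend with exonic length and GC content (a spline fit in patsy 1.0.2).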

Additional observations from a re-analysis of the deposited data

How the results depend on the processing

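With 1 library a group, no replicate could be left out. No paired analysis was possible because each group has 1 library. With DESeq2 size factors, total counts and the authors' CPM, the counts stayed at 5 genes at least 2-fold higher and 7 lower, and no gene past the minimum crossed 2-fold or changed sign. The median of all genes past the minimum moved to -0.057 at most. With no minimum, 6 of all 39 genes were higher and 8 lower, beside 11.7% and 12.6% of all genes in the table. With a minimum of 10 CPM 3 genes were higher and 4 lower, and with a threshold of 1.5-fold 9 and 13, the smaller and larger counts following from fewer genes tested and from the lower threshold. Removing the trend with length and GC content gave 5 and 6 and moved Itga2b, Itgb8 and Lamb1 across 2-fold and Itga6 across 0, from -0.07 to 0.03. A prior count of 5 moved Lamb1 alone across 2-fold. The median log2 fold of the members lay between -0.34 and -0.13 over all alternatives. Depth limits Itga8, Itgal, Itgb3 and the 8 genes below the minimum, whose counts are 26 or fewer in each library.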

Other observations

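Some abundant matrix genes of the related lists, chosen after their values were seen, stood among the clearest differences. Mfge8, a secreted ligand of Itgav integrins, had 4873 and 24163 counts, a log2 fold of 2.41. Tnr, the tenascin of the brain's own matrix, had 401 and 1853 counts, a log2 fold of 2.30, while its relative Tnc had 13592 and 7751, a log2 fold of -0.71. Smoc1, a basement membrane relative of Sparc, had 2841 and 8125 counts, a log2 fold of 1.61, and Sparcl1, another relative of Sparc, had 1964 and 4230, a log2 fold of 1.20. The fibrillins Fbn1 and Fbn2 were lower together, with log2 folds of -1.20 and -1.21.

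Gene length and GC content differed somewhat between the higher and the lower genes. The 5 genes at least 2-fold higher had a median GC content of 57.8% and a median exonic length of 7133 bases, and the 7 lower ones 52.5% and 9917 bases. The 19 genes within 2-fold had medians of 52.5% and 6943 bases. The lower genes thus lay near these in GC content, and the higher genes in length. Over all genes past the minimum, a fit of both explained 1.41% of the variance of the log2 fold, and the part it assigned to the 31 genes ran from -0.22 to 0.15.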
